A study of Homo sapiens with 8 samples.

Results

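The metallothionein genes were compared between normoxic and hypoxic SQ20B cells, an established line from a human head and neck squamous cell carcinoma. The set was chosen by name and holds 10 genes, namely MT1A, MT1E, MT1F, MT1G, MT1H, MT1L, MT1M, MT1X, MT2A and MTF1. The deposited table names 14528 genes, and 8 of the 10 were listed, each with 1 RefSeq transcript, among 24812 entries in all. MT1G and MT1H had no row, and a missing row gives no level. There were 4 libraries of poly(A)-selected RNA from normoxic cells, for which the labels state no oxygen level, and 4 from cells held in 0.5% O2 for 16 h, all from this single line in glucose-rich DMEM with serum. The labels do not say whether the replicates were separate cultures, and the paper calls them biological replicates. The table gives 1 FPKM value (fragments mapped to a transcript, scaled by its length and for library size) per transcript and condition over those replicates. Values of single replicates were not analysed here, so the spread between them is unknown, and every difference below is described without an error or a test.

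Metallothioneins are small, cysteine-rich proteins that bind zinc, copper and cadmium and can take up oxidants. Zinc entering the cell is sensed by the zinc-finger factor MTF1, which binds metal response elements in metallothionein promoters and raises their transcription. In squamous epithelium MT2A and several MT1 isoforms are the usual forms. MT3 is best known from the brain and MT4 from stratified epithelium.

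MT1X and MT1F were the listed members with more than a 2-fold difference, and both were higher in hypoxia. MT1X was at 40.2 FPKM in normoxia and 113 FPKM in hypoxia (2.81-fold), and MT1F at 2.93 and 9.68 FPKM (3.23-fold). Here and below, folds are computed with 0.1 FPKM added to each value. MT1E, the most abundant listed member in both conditions, was lower in hypoxia as deposited, at 265 and 214 FPKM, but not after quantile normalization. MT2A, a form made in most tissues, was at 165 FPKM in normoxia and 192 FPKM in hypoxia (1.16-fold), a log2 change of 0.21 that was 0.44 with equal column sums and 0.54 after quantile normalization. The summed FPKM of the 7 listed metallothioneins was 476 in normoxia and 532 in hypoxia (1.12-fold), a smaller fold than that of MT1X or MT1F. MT1G and MT1H, which had no row, are not in this sum.

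Upstream sequences are shown for MT1X and MT2A because they are the listed metallothioneins with an entry in the RefSeq promoter table, which held MT1X, MT2A, MT1H and MTF1, 4 of the 10 genes. Each run is the 250 bases before the annotated start, read 5′ to 3′ on the plus strand, from the table's GRCh38.p14 sequence. Each also matched GRCh37 (the hg19 build of the deposited loci) exactly and once on chromosome 16, at chr16:56716132-56716381 for MT1X and chr16:56642246-56642495 for MT2A. Capitals mark matches to the core of the metal response element, TGCACNC or TGCGCNC, on either strand.
MT1X: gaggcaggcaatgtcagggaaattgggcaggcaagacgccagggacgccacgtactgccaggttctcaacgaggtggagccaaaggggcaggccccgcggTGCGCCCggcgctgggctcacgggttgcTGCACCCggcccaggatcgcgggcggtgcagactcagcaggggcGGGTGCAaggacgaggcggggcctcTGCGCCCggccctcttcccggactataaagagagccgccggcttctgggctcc
MT2A: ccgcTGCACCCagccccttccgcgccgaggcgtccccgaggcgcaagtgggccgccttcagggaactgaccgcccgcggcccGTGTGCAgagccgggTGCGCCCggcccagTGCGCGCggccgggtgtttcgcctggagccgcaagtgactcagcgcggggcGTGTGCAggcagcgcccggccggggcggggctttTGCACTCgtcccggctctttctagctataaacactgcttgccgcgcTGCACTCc
The MT1X window held 4 such matches and the MT2A window 7. At least 1 match was present in 24.8% of the 35116 promoter windows of this length, and 4 or more in 0.370%. A match lay 53 to 47 bases before the start in MT1X, and another 54 to 48 bases before it in MT2A. The core of the hypoxia response element, ACGTG or GCGTG on either strand, matched once in each window, against 43.2% of all windows with at least 1 match. In MT2A that match overlapped a metal response element core, and in MT1X it did not. In the MT1H window the metal response element core matched 8 times, and in the MTF1 window it did not match. These are letter matches in a fixed window and describe no binding.

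The listed metallothionein genes lie in a cluster on chromosome 16 of hg19, spanning 75.6 kb. MT2A (NM_005953, 56642478 to 56643409) is followed by the pseudogene MT1L (NR_001447, 56651373 to 56652730), MT1E (NM_175617, 56659585 to 56661024), MT1M (NM_176870, 56666534 to 56667898) and MT1A (NM_005946, 56672578 to 56673999). Farther along are MT1F (NM_005949, 56691855 to 56693215) and MT1X (NM_005952, 56716382 to 56718108). MTF1 (NM_005955) lies apart, on chromosome 1 (38275239 to 38325292). Each metallothionein member, the unlisted MT1G and MT1H included, is annotated with 3 exons, and apart from MT1L and MT1E the transcripts compared were 396 to 425 bases long.

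FPKM is a level per transcript length, so levels can be set side by side between genes as far as that length scaling holds. How well it holds for transcripts as short as the metallothioneins was not tested. The order of the 7 listed metallothioneins was the same in both conditions, from MT1E through MT2A, MT1X, MT1F, MT1L and MT1A to MT1M. Without a spread between replicates it cannot be said which neighbours in that order are separated. MT1E ranked 310 among all named genes by FPKM in normoxia and 308 in hypoxia, so that its rank was nearly level although its deposited FPKM was 1.24-fold lower, a direction that turned under quantile normalization. MT1X moved from rank 2273 to rank 661, and MT2A from 532 to 344.

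**Figure D1:**
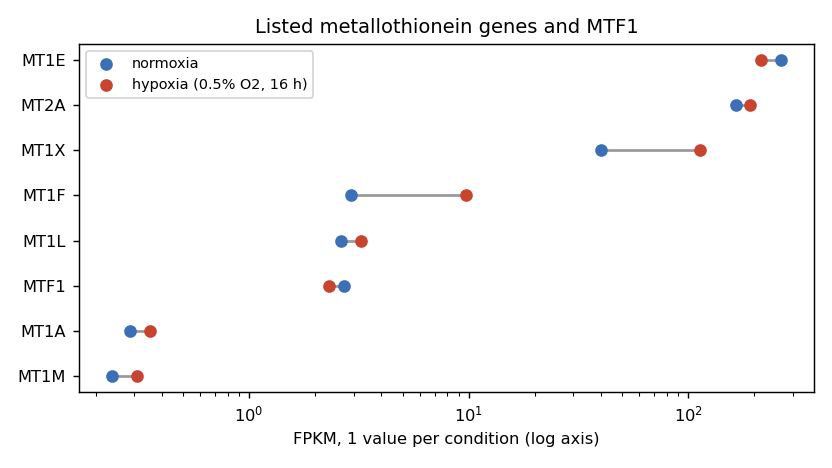
FPKM of each listed member (vertical axis) on a log axis, with 1 point for normoxia and 1 for hypoxia joined by a line; each point is the authors' value over 4 replicates, with no error. The lines are longest for MT1X (40.2 to 113 FPKM) and MT1F (2.93 to 9.68 FPKM), and MT1E and MTF1 have the hypoxic point on the left as deposited, which for MT1E turned under quantile normalization.

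Changes are given as log2((hypoxia + 0.1)/(normoxia + 0.1)), in which the 0.1 FPKM added to each value lowers the change of scarce transcripts. On this scale MT1F was at 1.69, MT1X at 1.49, MT1L at 0.30, MT2A at 0.21 and MT1E at -0.31. These are the 5 listed metallothionein genes with a mean of at least 0.5 FPKM over both conditions. Their median was 0.30, against -0.07 for all 12106 genes above that limit. A level at least 2-fold higher in hypoxia was found for 2 of the 5, against 3.21% of all genes above the limit, and a level at least 2-fold lower for none, against 2.62%. With a limit of 1.5-fold the counts were again 2 and 0, against 9.95% of all genes higher and 11.2% lower. These counts cover few genes and were not tested. Of all genes above the limit, 151 had a log2 change of at least that of MT1X (1.25%) and 112 one of at least that of MT1F (0.925%). MT2A and MT1L lay well inside the bulk, with 27.1% and 21.6% of genes at or above their changes.

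**Figure D2:**
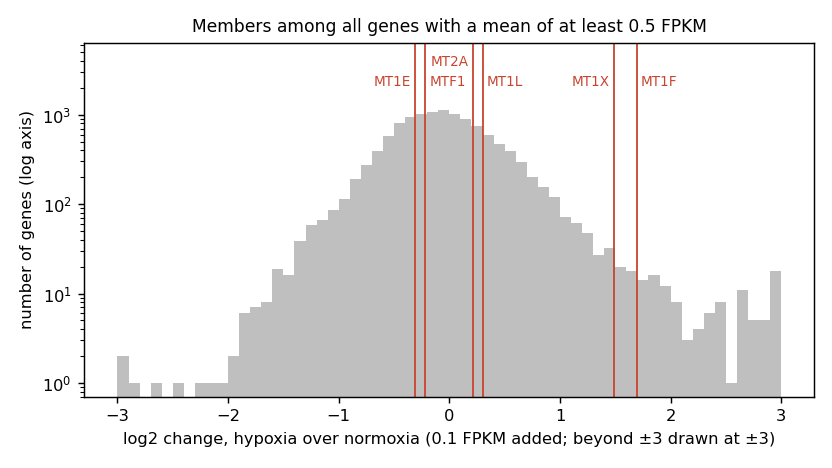
Histogram of log2 change (horizontal axis, hypoxia over normoxia) for the 12106 genes with a mean of at least 0.5 FPKM, with the number of genes on a log axis and a red line at each member above that limit. MT1X (1.49) and MT1F (1.69) stand in the upper tail, and the other 4 members lie in the central mass.

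MT1A and MT1M stayed below the 0.5 FPKM limit in both conditions. MT1A was at 0.286 FPKM in normoxia and 0.353 in hypoxia, and MT1M at 0.238 and 0.308. Both were slightly higher in hypoxia (log2 changes 0.23 and 0.27), at levels where the added 0.1 FPKM matters, and with 1 FPKM added the changes were 0.07 and 0.08. MT1L, annotated as a transcribed pseudogene, was at 2.61 and 3.24 FPKM. Counting these members too, 6 of the 7 listed metallothioneins were higher in hypoxia and MT1E alone was lower, and after quantile normalization MT1E was no longer lower. Of the 5 listed metallothioneins above the limit, 4 were higher as deposited, against 43.6% of all genes above it.

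The direction of MT1E depended on how the columns were scaled. The FPKM values sum to 536005 in normoxia and 458431 in hypoxia, so the hypoxic column is smaller as a whole. Its log2 change of -0.31 became -0.08 after scaling both columns to the same sum and 0.0060 after quantile normalization. Its direction is therefore not established. The other 6 listed metallothioneins were higher in hypoxia under each scaling that was tried, and MT1X stayed between 1.47 and 1.72 and MT1F between 1.44 and 1.92 on the log2 scale over all alternatives.

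Differences between members within the same columns do not depend on a common scale factor. MT1X exceeded MT1E in log2 change by 1.80 and MT2A by 1.28, while MT1F exceeded MT1X by 0.20. The order of MT1F and MT1X was not settled, since their log2 changes were 1.44 and 1.47 with 1 FPKM added, and 1.74 and 1.70 after quantile normalization. The ratio of MT1E to MT1X was 6.58 in normoxia and 1.89 in hypoxia. That of MT2A to MT1X was 4.11 and 1.69, and that of MT1E to MT2A was 1.60 and 1.11. MT1X and MT1F kept a similar ratio, 13.7 and 11.7. The scarcer pair MT1F and MT1L, close to each other in normoxia at a ratio of 1.12, stood at 2.99 in hypoxia.

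As shares of the summed FPKM of the 7 listed metallothioneins, MT1E made up 55.6% in normoxia and 40.1% in hypoxia. MT1X made up 8.44% and 21.3%, and MT2A was nearly level at 34.7% and 36.0%. MT1F made up 0.614% and 1.82%. Together MT1E, MT2A and MT1X carried 98.7% of the sum in normoxia and 97.4% in hypoxia. In FPKM, MT1X gained 73.0, MT2A 26.1 and MT1F 6.75, while the difference for MT1E was -51.1 in the values as deposited (0.0060 on the log2 scale after quantile normalization). The log2 change of the sum was 0.16, and without MT1E it was 0.59, from 212 to 318 FPKM.

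**Figure D3:**
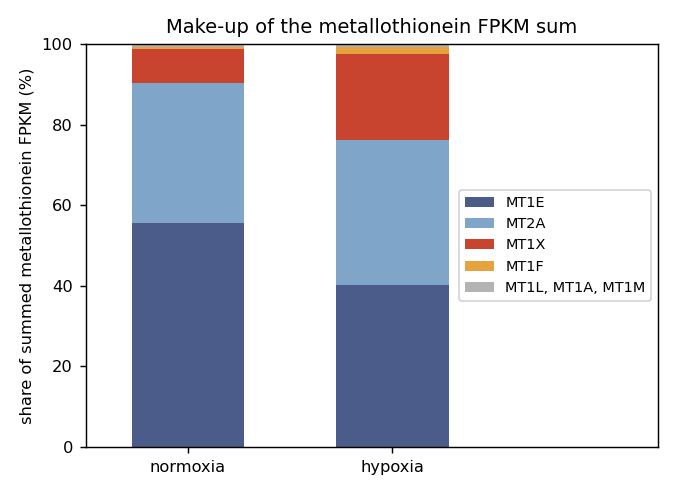
Share of the summed FPKM of the listed metallothioneins (vertical axis, percent) held by each gene in normoxia and hypoxia, as stacked bars starting at 0. The MT1E share is 55.6% in normoxia and 40.1% in hypoxia, and the MT1X share 8.44% and 21.3%.

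Metallothionein transcripts resemble each other, so reads can be split between copies in the counting. Over a global alignment, MT1X was 84.6% identical to MT2A and 84.5% to MT1E, and MT1E was 91.2% identical to MT1M. To see how much of each transcript is unique, its stretches of 50 bases were looked up in all annotated transcripts outside its own locus. A stretch was shared for 5.34% of MT1E, 6.12% of MT1F, 11.1% of MT2A and 18.0% of MT1X, most often with MT1G in the last case (13.2%). MT1G itself had no row. MT1M shared 14.6% and MT1A 5.76%, and of the annotated MT1L, which covers 186 bases, 11.7% was shared. The annotated MT1E covers 704 bases and starts at 56659387, before the deposited start at 56659585. The MT1E share thus counts bases outside the deposited locus and was not computed for the deposited transcript. How the shared reads were assigned was not tested, so values of all these members are uncertain to an unknown degree. No read length was used here, and longer fragments share less than stretches of 50 bases.

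Likeness could be judged over 2 values per gene only. Among 549 genes outside the lists with a mean FPKM within 2-fold of that of MT1E, the nearest in log2 change were COX7A2, SLC25A3 and SUB1, each at -0.31. The median of those 549 genes was -0.30 and 131 of them lay within 0.1 of MT1E, and 278 had a change at or above its own. The same look-up for MT1X, MT1F and MT2A was added after their values were seen. Around MT1X, 14 of 1734 genes of similar FPKM had a log2 change at or above its own, sign included. The nearest were SLCO1B3, ERRFI1 and NEAT1 (1.52, 1.37 and 1.62). Around MT1F, 25 of 3596 genes were at or above its change, and the nearest were ZNF713, FOSL2 and HEG1 (1.73, 1.74 and 1.64). Around MT2A, 75 of 790 genes were at or above its change of 0.21, where the median was -0.28. MT2A thus ranked above most genes of its abundance in signed log2 change.

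Genes flanking the cluster had smaller differences than MT1X and MT1F. Within 500 kb on either side, 11 other genes were listed, 9 of them with a mean of at least 0.5 FPKM, and 4 were higher and 5 lower in hypoxia. Their log2 changes ran from -0.87 for OGFOD1 (47.1 and 25.8 FPKM), an oxygenase acting on a ribosomal protein, to 0.68 for BBS2 (24.8 and 39.9 FPKM), a component of the ciliary BBSome. None of the 9 reached 2-fold in either direction, where 3.21% of all genes were 2-fold higher and 2.62% 2-fold lower, so a count of 0 is near the share of all genes. Their median was -0.04, and 0.16 with equal column sums. NUP93, a nuclear pore gene and the nearest listed gene beyond MT1X, was at 54.7 and 41.6 FPKM. Within the cluster itself, MT1E (-0.31 as deposited, 0.0060 after quantile normalization) lies between MT1L (0.30) and MT1M (0.27), and all listed metallothioneins are on the same strand.

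**Figure D4:**
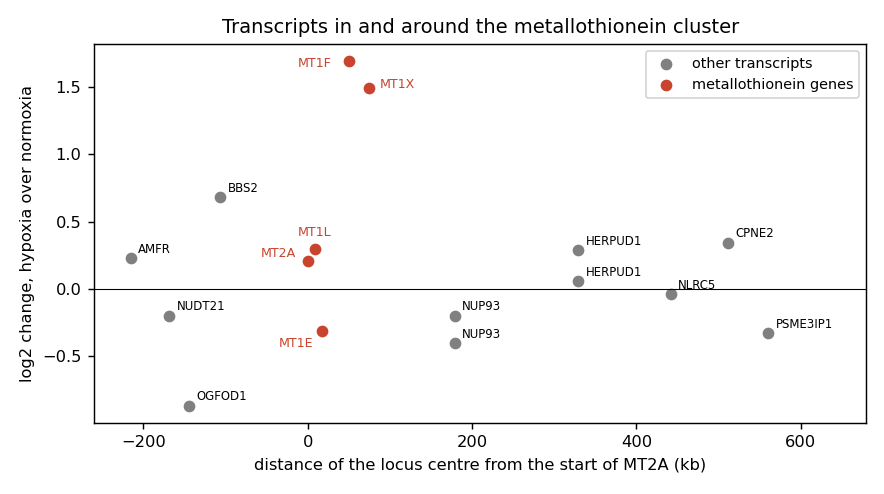
Log2 change (vertical axis, hypoxia over normoxia) of transcripts with a mean of at least 0.5 FPKM against the distance of their locus centre from the start of MT2A in kb. The metallothionein genes are red, with MT1F (1.69) and MT1X (1.49) above all neighbours, which lie between -0.87 and 0.68.

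MTF1, the zinc sensor of the pathway, was scarce, at 2.71 FPKM in normoxia and 2.31 FPKM in hypoxia, a log2 change of -0.22. With equal column sums it was -0.0035, so MTF1 was not higher in hypoxia under any scaling tried. Its protein and its binding were not measured. Of 8 genes whose products are known to act at metallothionein promoters, MTF1 among them, none differed 2-fold (against 3.21% of all genes higher and 2.62% lower) and the median log2 change was -0.04 (0.19 with equal column sums). HIF1A, which encodes the oxygen-regulated subunit of the hypoxia-inducible factor, was at 253 and 141 FPKM (-0.85). NR3C1, the glucocorticoid receptor gene, was at 50.3 and 47.7 FPKM (-0.08, and 0.15 with equal sums).

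Other genes of zinc, copper and iron handling were taken as lists by symbol, with 47 genes in all, of which 37 had a mean of at least 0.5 FPKM. Of these 37, 13 were higher and 24 lower in hypoxia as deposited, and 22 were higher and 15 lower with equal column sums. The 37 genes together thus have no direction that is independent of the scaling. Their median log2 change was -0.12 as deposited and 0.10 with equal sums. Taken singly, the zinc exporter and copper lists had a negative median and the iron list a positive one under each scaling tried. The median of the zinc importers changed sign. As deposited, SLC39A2 alone was at least 2-fold higher (1 of 37, against 3.21% of all genes), and none was 2-fold lower. SLC39A2, which encodes a zinc importer, was scarce, at 0.438 and 1.08 FPKM (log2 change 1.13), and with 1 FPKM added it did not reach 2-fold.

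Most SLC30A transporters move zinc out of the cytosol. Of the 6 with a mean of at least 0.5 FPKM, 5 were lower in hypoxia as deposited (median log2 change -0.35) and 4 with equal sums (-0.13). Of all 12106 genes, 6831 were lower as deposited and 4392 with equal sums. The most abundant were SLC30A9 (70.1 and 62.0 FPKM, -0.18, and 0.05 with equal sums) and SLC30A5 (48.6 and 34.1 FPKM, -0.51). SLC30A1, the plasma membrane exporter and a known MTF1 target, was looked at after its values were seen, and was at 8.74 and 7.22 FPKM (-0.27, and -0.05 with equal sums). SLC39A transporters bring zinc into the cytosol, and 4 of the 11 above the limit were higher and 7 lower as deposited (median -0.12), and 7 higher and 4 lower with equal sums (0.10). SLC39A1 was at 68.2 and 59.9 FPKM (-0.19, and 0.04 with equal sums) and SLC39A9 at 71.7 and 55.1 FPKM (-0.38).

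Copper is also bound by metallothioneins. In the copper list 8 of 9 genes above the limit were lower in hypoxia as deposited (median log2 change -0.23), and 5 of 9 with equal sums (-0.01), beside the 6831 and 4392 of all 12106 genes that were lower. SOD1, the copper-zinc superoxide dismutase, was at 366 and 323 FPKM (-0.18, and 0.05 with equal sums), and COX17, a copper chaperone for cytochrome oxidase, at 172 and 122 FPKM (-0.50).

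**Figure D5:**
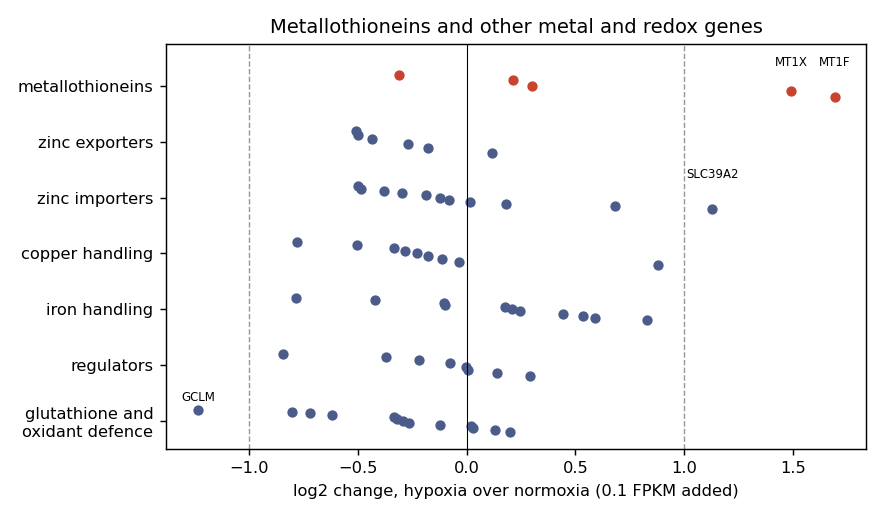
Log2 change (horizontal axis) of each gene with a mean of at least 0.5 FPKM, 1 point per gene, for the metallothioneins (red) and 6 lists of metal, regulator and redox genes; dashed lines mark 2-fold. Beyond them lie MT1X and MT1F, SLC39A2 (1.13) and, on the lower side, GCLM (-1.24).

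Among other metallothionein loci, the pseudogene MT1DP (NR_027781) was the one listed of 12 looked for, at 0.122 FPKM in normoxia and 0.494 in hypoxia. Neither MT3 nor MT4 had a row. MT1DP is between MT1A and MT1F in the cluster, and its log2 change of 1.42 was 0.41 with 1 FPKM added.

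The labels were set beside fixed markers. Of 8 known hypoxia-induced genes, 7 were listed. All 7 were at least 2-fold higher in hypoxia (log2 changes from 1.02 to 5.58), against 3.21% of all genes. These 8 were chosen with earlier results of these data known, so they are no independent check of the labels. LDHA, abundant in most cells, had no row, as was also the case for KRT14, so a missing row alone does not establish a low level. Taking the higher of the normoxic and hypoxic values of each row, the lowest over all rows was 0.0998 FPKM. No listed transcript was thus below that level in both conditions, and the paper describes the listed transcripts as those expressed in SQ20B cells. A missing row can therefore also go with a very low level, and the reason for any single one was not tested. Of 7 squamous markers, 6 were listed, among them KRT5 (398 and 442 FPKM) and TP63 (42.8 and 44.6 FPKM). As deposited, 3 of the 6 were higher and 3 lower in hypoxia (median log2 change -0.07). KRT6A had the lowest change, at 5.10 and 3.26 FPKM (-0.63). The summed FPKM of the 6 was 530 in normoxia and 573 in hypoxia, most of it from KRT5. None differed 2-fold, against 3.21% of all genes higher and 2.62% lower, so this is near the share of all genes. Of 4 fibroblast and 4 immune markers, 1 each was listed and stayed below 0.2 FPKM, while PTPRC and COL1A1 had no row. CDH5, an endothelial marker, was at 4.78 and 2.83 FPKM, without a row for PECAM1 or VWF. Of 3 neuronal markers, SYP (0.218 and 0.251 FPKM) and SNAP25 (0.0892 and 0.124 FPKM) were listed, both low. In these bulk RNA samples a higher level in every cell and a larger number of cells with the transcript cannot be told apart.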

How the data were processed

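Stranded poly(A) RNA-seq of SQ20B cells covered 4 normoxic and 4 hypoxic samples, grouped by their source label, since the treatment text is the same for all samples. The submitters' processing notes name STAR 2.3.0.1, Cufflinks 2.1.1 and hg19. Per the paper's methods the authors estimated transcript levels against RefSeq genes at default settings, and the FPKM values they deposited combine the replicates into 1 value per condition. The deposited table also holds the authors' own comparison, namely a log2 fold change, a test statistic (a score), a p-value and a q-value, and none of these was used.

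Transcripts were paired with symbols by RefSeq accession (24293 of 24812 rows matched) through a RefSeq gene table of GRCh38.p14, from which only names were taken. FPKM was summed per gene. The log2 change was computed with 0.1 FPKM added, and counts use genes with a mean of at least 0.5 FPKM and a change of at least 2-fold. The planned limma test was not run, as it requires a value for each replicate. With 1 value per condition no interval, SD or p-value can be given, and the depth behind each value was not analysed here.

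Coordinates are hg19, counted from 1, after adding 1 to the deposited start positions, since these are 1 lower than the annotated start of MT1X. Transcript sequences and exons came from GENCODE on GRCh37, and promoters from RefSeq. The members and lists were chosen with earlier results of these data known. Genes named are all members, genes of each list past 2-fold (with the most abundant 2 where fewer than 2 passed), the 3 genes nearest in log2 change, and listed neighbours within 500000 bases. The counting was checked on columns with simulated folds and no noise, which tests the arithmetic only and not the spread of real values. Alternatives changed the pseudocount, filter, scaling, transcript choice, fold and family sum. Python 3.11.15, numpy 2.4.6, pandas 2.3.3 and Biopython 1.88 were used.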

Additional observations from a re-analysis of the deposited data

How the results depend on the processing

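No paired analysis was possible because the table gives 1 value per condition and none for single replicates, and leaving out a replicate could not be run for the same reason. For the listed metallothioneins, the summed log2 change of 0.16 was 0.23 with the median of all genes set to 0. It was 0.38 with columns scaled to equal sums, 0.46 after quantile normalization and 0.59 without MT1E. The count of metallothioneins at least 2-fold higher, 2, and that of those 2-fold lower, 0, were the same under every alternative run, a 1.5-fold limit included. Of the metal handling genes, 1 was at least 2-fold higher, against 0 with 1 FPKM added, 0 with a mean of at least 1 FPKM, 3 with equal sums (SLC39A2, ATP7A and SLC40A1) and 5 at 1.5-fold, where 2 were lower (SCO1 and SLC25A28, named after their values were seen). Of all genes, 5.77% were at least 2-fold higher with equal sums, and 9.95% were higher and 11.2% lower at 1.5-fold. Scaling to equal sums moved the median log2 change of all genes from -0.07 to 0.15 and the share of higher genes among all those past 2-fold from 55.0% to 82.0%. Median centring gave 65.1% and quantile normalization 63.7%. The log2 change of MT1E turned from -0.31 to 0.0060 in 1 of 8 alternatives (quantile normalization), and those of the other listed members kept their sign in 8 of 8. With no replicate values and no read counts, differences near the size of these shifts cannot be separated from scaling.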

Other observations

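Glutathione and oxidant defence genes, which act beside metallothioneins against oxidants, had a median log2 change of -0.29, where that of all genes was -0.07. Of 13 genes with a mean of at least 0.5 FPKM, 9 were lower and 4 higher as deposited. After quantile normalization 7 were lower and 6 higher (median -0.02), and with equal column sums 8 and 5 (-0.07). Of all 12106 genes, 6831 were lower as deposited, 5875 after quantile normalization and 4392 with equal sums. GCLM, the modifier subunit of the enzyme that starts glutathione synthesis, was the one past 2-fold (1 of 13 lower, against 2.62% of all genes). It was at 132 FPKM in normoxia and 56.1 FPKM in hypoxia (-1.24), and stayed past 2-fold under each scaling tried. PRDX1, a peroxiredoxin, was at 1472 and 1202 FPKM (-0.29, and -0.02 after quantile normalization) and TXN, thioredoxin, at 1048 and 871 FPKM (-0.27, and 0.10 after quantile normalization).

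Of 11 iron handling genes, 7 were higher as deposited (median log2 change 0.21), 9 with equal column sums (0.44) and 8 after quantile normalization (0.50). Of all 12106 genes, 5275 were higher as deposited (-0.07), 7714 with equal sums (0.15) and 6221 after quantile normalization (0.02). The ferritin subunits differed in direction, with FTH1 at 924 and 1069 FPKM (0.21) and FTL at 947 and 708 FPKM (-0.42). No gene of this list reached 2-fold as deposited, against 3.21% of all genes higher and 2.62% lower. SLC40A1, which encodes the iron exporter ferroportin, reached it with equal sums (1.04), where 5.77% of all genes were 2-fold higher.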
